A study of Mus musculus with 3 samples.

Results

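The mitochondrial ribosomal protein genes examined here are the 77 genes whose symbol begins with Mrpl or Mrps followed by a digit, 48 Mrpl and 29 Mrps, among 24054 genes in the deposited expression table. RNA was sequenced from primary cortical neurons of embryonic day 17 C57BL/6 mice, grown for 7 days in culture. Control cells stayed at 21% oxygen. Hypoxic cells spent 7 h at 0.2% oxygen without triiodothyronine (T3, the active thyroid hormone), and the other hypoxic culture spent the same time at that oxygen level with 5 nM T3. The labels do not say whether the control medium held T3, nor how many embryos gave the cells. There was 1 library per group, so no difference below has a replicate check. All 3 comparisons share libraries with each other.

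The mitochondrial ribosome translates the few messages encoded by mitochondrial DNA, all of which specify core subunits of the oxidative phosphorylation complexes. Its ribosomal RNAs come from the mitochondrial genome, but every protein of its small and large subunits is encoded in the nucleus, made in the cytosol and imported. Some of these proteins have counterparts in bacterial ribosomes and others are found only in mitochondria. Neurons depend heavily on oxidative phosphorylation, so the supply of these subunits is of interest in oxygen-deprived cortical cells. Symbols do not fully follow position in the particle. The Mrps30 and Mrps18a products lie in the large subunit, and Mrps36 is now known as a component of the alpha-ketoglutarate dehydrogenase complex. With these assignments, taken from general knowledge, 50 genes coded for the large subunit, 26 for the small subunit and 1 (Mrps36) for neither.

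The promoters of the genes at both ends of the range in hypoxia over control are printed because they show the sequence at the genes that differed most from each other. Each is the RefSeq window on GRCm38.p6 from 250 bases before to 50 bases after the annotated start, 5′ to 3′ along the gene. Mrpl9 lies at chr3:94443086-94443385 (plus strand), Mrps24 at chr11:5707652-5707951 (minus strand) and Mrpl21 at chr19:3282792-3283091 (plus strand). These are the 3 genes with the highest ratios. Mrps2 lies at chr2:28467816-28468115, Mrps31 at chr8:22411090-22411389 and Mrpl1 at chr5:96209865-96210164, all on the plus strand, and these are the 3 with the lowest ratios. Capitals mark matches to a motif of NRF1 (the letters in capitals at Mrpl9, with the sixth base free), of ETS factors such as GABPA (CCGGAAG) or of YY1 (AANATGGCG), read on both strands. These factors are known regulators of nuclear genes for mitochondrial proteins.
Mrpl9: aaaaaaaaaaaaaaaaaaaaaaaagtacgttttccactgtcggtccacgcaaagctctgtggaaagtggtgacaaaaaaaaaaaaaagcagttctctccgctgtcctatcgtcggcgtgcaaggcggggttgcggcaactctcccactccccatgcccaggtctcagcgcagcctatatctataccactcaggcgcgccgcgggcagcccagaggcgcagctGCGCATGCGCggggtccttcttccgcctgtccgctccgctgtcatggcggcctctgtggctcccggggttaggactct
Mrps24: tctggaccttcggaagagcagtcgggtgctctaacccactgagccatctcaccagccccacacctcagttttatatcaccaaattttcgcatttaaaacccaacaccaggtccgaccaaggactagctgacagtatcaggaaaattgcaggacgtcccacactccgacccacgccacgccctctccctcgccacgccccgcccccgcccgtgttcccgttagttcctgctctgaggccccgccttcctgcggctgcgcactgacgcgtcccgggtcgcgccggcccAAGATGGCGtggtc
Mrpl21: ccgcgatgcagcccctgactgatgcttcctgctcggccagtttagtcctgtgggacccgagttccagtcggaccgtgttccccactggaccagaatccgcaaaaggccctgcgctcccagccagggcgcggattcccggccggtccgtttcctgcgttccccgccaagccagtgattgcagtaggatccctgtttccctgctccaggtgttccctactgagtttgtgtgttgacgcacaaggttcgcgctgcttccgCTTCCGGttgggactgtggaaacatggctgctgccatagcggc
Mrps2: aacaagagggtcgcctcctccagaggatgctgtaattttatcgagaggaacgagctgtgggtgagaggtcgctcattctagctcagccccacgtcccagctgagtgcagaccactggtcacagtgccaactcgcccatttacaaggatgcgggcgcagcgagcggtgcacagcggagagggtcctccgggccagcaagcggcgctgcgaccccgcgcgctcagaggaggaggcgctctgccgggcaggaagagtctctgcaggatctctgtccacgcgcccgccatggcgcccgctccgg
Mrps31: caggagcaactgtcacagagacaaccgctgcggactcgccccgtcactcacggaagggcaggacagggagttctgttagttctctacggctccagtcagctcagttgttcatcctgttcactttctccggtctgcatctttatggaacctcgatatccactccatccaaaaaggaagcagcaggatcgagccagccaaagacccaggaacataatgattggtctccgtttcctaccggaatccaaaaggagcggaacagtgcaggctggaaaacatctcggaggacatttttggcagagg
Mrpl1: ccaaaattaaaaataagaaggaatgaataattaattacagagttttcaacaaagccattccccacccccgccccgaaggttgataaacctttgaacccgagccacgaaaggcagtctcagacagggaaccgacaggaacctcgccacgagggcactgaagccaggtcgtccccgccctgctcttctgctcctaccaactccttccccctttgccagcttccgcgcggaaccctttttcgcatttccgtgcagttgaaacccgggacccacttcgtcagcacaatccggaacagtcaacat
In these windows Mrpl9 held an NRF1 match at positions −28 to −19 from the start. Mrps24 held a YY1 match at +37 to +45, and Mrpl21 an ETS match on the other strand at +8 to +14. The windows of Mrps2, Mrps31 and Mrpl1 held none of the 3 letter strings.

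Windows were found for 68 of the 77 genes, and the same motifs were counted in the windows of 10062 genes compared. The ETS motif was in 23 of the 68 (33.8%), against 18.5% of all windows. The NRF1 motif was in 13 (19.1%), against 10.9%, and the YY1 motif in 10 (14.7%), against 5.46%. The E-box CACGTG, bound by MYC and related factors, was in 5 (7.35%), against 10.3%. The string ACGTG, the core of the site bound by hypoxia-inducible factors, which includes every E-box match, was in 15 (22.1%), against 26.0%. Of the NRF1, ETS and YY1 motifs, 29 windows had none, 32 had 1, 7 had 2 and 0 had all 3. In hypoxia over control the median log2 ratio was 0.35 with and 0.33 without an NRF1 match, 0.38 with and 0.33 without an ETS match, and 0.33 with and 0.34 without a YY1 match. It was 0.32 with and 0.35 without ACGTG. In hypoxia with T3 over control it was 0.47 with and 0.35 without an NRF1 match. A longer form of the YY1 motif, every match of which overlaps the shorter one, was in 5 windows (7.35%), against 1.69% of all windows, with medians in hypoxia over control of 0.14 with and 0.35 without it. None of these differences was tested. Median GC content was 58.2% in the 68 windows and 61.7% in all windows.

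Levels are in CPM, the reads of a gene relative to a library size that the authors scaled. All 77 genes were detected in every library and all passed the filter of a mean of 1 CPM, which left 12692 genes to compare. The libraries held 18081904 (control), 17118865 (hypoxia) and 22533574 (hypoxia with T3) reads assigned to genes. Reads per mitochondrial ribosomal protein gene ranged from 110 to 761 (median 371) in control, from 82 to 1032 (median 398) in hypoxia and from 102 to 1235 (median 534) with T3. The median level was 17.2 CPM in control and, in the hypoxic cultures, 22.0 CPM without and 22.7 CPM with T3. Together the genes held 0.173% of the control reads, 0.195% of the hypoxia reads and 0.192% of the T3 reads. Intervals below are exact Clopper-Pearson 95% intervals on the reads of the libraries compared, written as ratios, and they cover counting error only.

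Divided by exonic length, levels differed more than 10-fold between genes of the same particle. The median was 11.6 CPM per kb in control, 15.1 in hypoxia and 15.4 with T3. Mrpl42, a mitochondrion-specific protein, was at the top with 35, 50.1 and 51.3 CPM per kb in control, hypoxia and hypoxia plus T3. Mrpl20 followed with 33.3, 45.5 and 47.7 CPM per kb. Next were Mrps21 (28.9, 42.4 and 42.3 CPM per kb), Mrpl28 (26.8, 41.0 and 39.9) and Mrpl33 (28.6, 36.5 and 40.4). Each of these 5 was higher in both hypoxic libraries than in control. At the other end, Mrpl1 had 3.03, 2.24 and 1.83 CPM per kb and Mrpl47 had 2.19, 3.0 and 3.21. Mrps35 had 2.65, 3.25 and 3.55, Mrps14 3.18, 3.26 and 3.30, and Mrpl17 2.80, 3.84 and 3.48. Length here is the union of the exons of all protein-coding transcripts, so a long alternative transcript lowers the value.

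**Figure D1:**
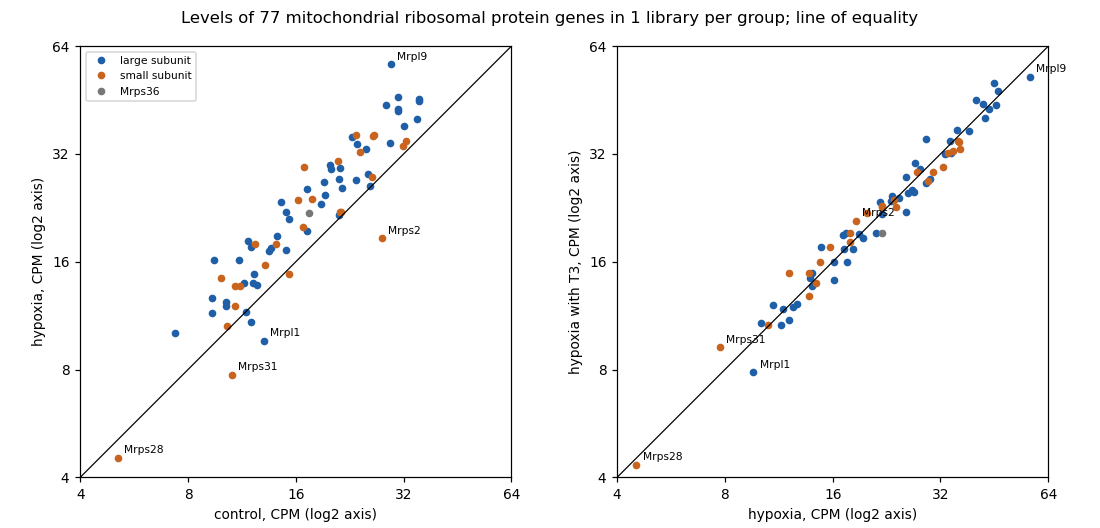
Levels of the 77 mitochondrial ribosomal protein genes in CPM, on log2 axes. The left panel sets hypoxia against control and the right panel hypoxia with T3 against hypoxia. Each point is 1 gene in 1 library per group, coloured by subunit, and the line marks equality. On the left 71 points lie above the line and Mrps2, Mrps31 and Mrpl1 lie clearly below it. On the right the points lie along the line.

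Hypoxia against control asked what low oxygen without T3 did to these messages. The genes as a group were modestly higher in the hypoxia library. Their median log2 ratio (on CPM + 1) was 0.33, with quartiles of 0.18 and 0.50, against 0.05 over all genes compared, whose quartiles were −0.31 and 0.34. Of the 77, 71 had a log2 ratio above 0, against 54.5% of all genes compared. A ratio of at least 1.3-fold higher was seen in 33 of the 77 (42.9%), against 21.6% of all genes. A ratio of at least 1.3-fold lower was seen in 3, namely Mrps2, Mrps31 and Mrpl1, against 21.4%. None of the 77 reached 2-fold in either direction, against 1.99% higher and 4.92% lower among all genes. The counting interval lay above 1 in 55 of the 77, against 37.8% of all genes, and below 1 in 3, against 30%. Summed over the 77 genes the level was 1449 CPM in control and 1846 CPM in hypoxia, a ratio of 1.27 (1.25 to 1.29), while the sum over all genes compared had a ratio of 1.13.

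The size of this difference depended on the scaling. The authors' CPM do not add up to the same total, with sums of 837997 in control, 945496 in hypoxia and 958205 with T3. Scaling every library to an equal total took the log2 median over all genes from 0.05 to −0.10. The number of mitochondrial ribosomal protein genes at least 1.3-fold higher then went from 33 to 11, with 3 lower as before. The share of all genes went to 10.8% higher and 30.1% lower. Relative to the median of all genes, the genes stood 0.27 above it on the log2 scale under both scalings. Scaling multiplies all genes of a library by the same factor, so this difference could hardly change and is no check of the result.

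**Figure D2:**
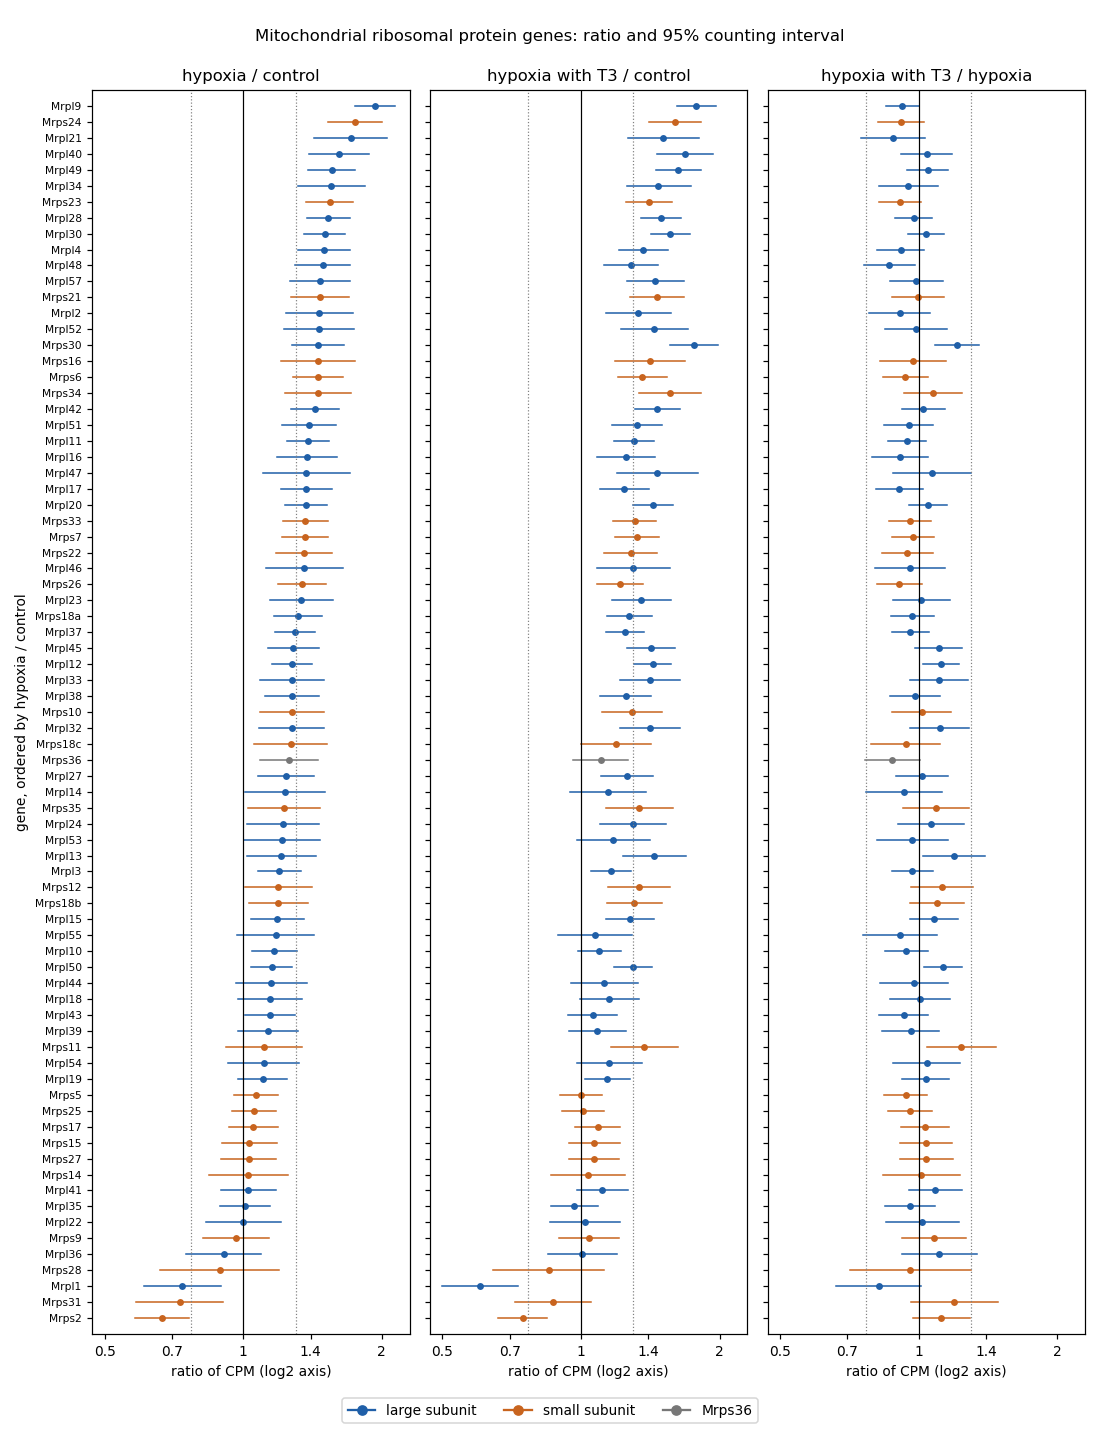
Ratio of CPM for each of the 77 genes, with its 95% counting interval, on a log2 axis, in the 3 comparisons. Genes are ordered by hypoxia over control in all panels and coloured by subunit. The solid line marks a ratio of 1 and the dotted lines 1.3-fold in either direction. Mrpl9 is at the top with 1.93 and Mrps2 at the bottom with 0.667, and in the right panel no gene passes 1.3-fold.

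Among large-subunit genes with bacterial counterparts, Mrpl9 stood highest, at 29.5 CPM in control, 57.0 in hypoxia and 52.5 with T3. Both hypoxic libraries were well above control, with hypoxia over control at 1.93 (1.75 to 2.13). Mrpl9 spans chr3:94443318-94451130 in the GENCODE M21 annotation (GRCm38), on the plus strand. Its counterpart in bacteria is ribosomal protein L9. Mrpl21 had 9.45, 16.2 and 14.2 CPM in the same order, a ratio of 1.71 (1.43 to 2.06) in hypoxia. Mrpl30 had 30.8, 46.2 and 48.1 CPM, a ratio of 1.5 (1.36 to 1.67). At the low end of this class Mrpl1, whose bacterial counterpart forms the mobile stalk beside the tRNA exit site, had 13, 9.61 and 7.87 CPM. Both hypoxic libraries were below control, at 0.738 (0.607 to 0.895) without T3. Mrpl36 (12, 10.9 and 12.1 CPM), Mrpl22 (11.6, 11.6 and 11.8 CPM) and Mrpl35 (25.7, 26.0 and 24.9 CPM) were nearly level across the libraries. Their hypoxia over control ratios were 0.906 (0.749 to 1.10), 1.0 (0.829 to 1.21) and 1.01, so the members of 1 subunit did not share 1 ratio.

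Among mitochondrion-specific proteins of the large subunit, Mrpl40 had 14.6 CPM in control, 23.5 in hypoxia and 24.5 with T3, a ratio of 1.61 (1.39 to 1.87) in hypoxia. Mrpl49 had 22.9, 35.6 and 37.3 CPM, a ratio of 1.56 (1.38 to 1.75). Mrps30, a large-subunit protein in spite of its name, had 20.02, 29.1 and 35.2 CPM. Its hypoxia over control ratio was 1.45 (1.28 to 1.65), and it was the member with the second highest ratio once T3 was present. Mrpl57, whose product was earlier called Mrp63, had 15, 22.0 and 21.8 CPM, a ratio of 1.47 (1.26 to 1.70). Mrpl12, which has a bacterial counterpart, is a protein of the ribosomal stalk also reported to bind the mitochondrial RNA polymerase. It had 35.3, 45.1 and 50.5 CPM. It was the most abundant of the 77 in control by CPM, and its ratio in hypoxia was 1.28 (1.16 to 1.41).

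In the small subunit the spread was as wide. Mrps24 had 16.9 CPM in control, 29.4 in hypoxia and 27.0 with T3, a ratio of 1.75 (1.52 to 2.0). Mrps23, specific to mitochondria, had 23.5, 36.2 and 33.0 CPM, a ratio of 1.54 (1.37 to 1.73). Mrps2 had the lowest ratio of all 77 genes, with 27.9, 18.6 and 20.8 CPM and 0.667 (0.582 to 0.764). It is a core protein with a bacterial counterpart, and lies at chr2:28468066-28471178 on the plus strand. Mrps31 had 10.6, 7.73 and 9.23 CPM, a ratio of 0.729 (0.586 to 0.903). Mrps9 (15.3, 14.7 and 15.9 CPM) and Mrps5 (32.6, 34.7 and 32.6 CPM) were nearly level, at 0.964 (0.817 to 1.14) and 1.07. Mrps12, which lines the decoding centre, had 13.2, 15.7 and 17.6 CPM, a ratio of 1.19 (1.01 to 1.41). Mrps28 was the least abundant by CPM, with 5.10, 4.53 and 4.34 CPM, and its ratio of 0.888 (0.659 to 1.19) did not leave counting error. It was named after its values were seen.

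The Mrps18 family has 3 paralogs that occupy different places in the ribosome. Mrps18a, placed in the large subunit, had 25.1 CPM in control, 33.0 in hypoxia and 32 with T3, a ratio of 1.31 (1.17 to 1.48). Mrps18b had 16.8, 19.99 and 21.9 CPM, a ratio of 1.19 (1.03 to 1.38). Mrps18c had 10.8, 13.7 and 12.8 CPM, a ratio of 1.27 (1.06 to 1.52). All 3 were higher in both hypoxic libraries, with overlapping intervals. Mrps18a was the gene just past the 1.3-fold limit, at a log2 ratio of 0.38, and Mrpl37 the gene just short of it, at 0.37.

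By subunit, the median log2 ratio of hypoxia over control was 0.35 in the 50 large-subunit genes, with 23 at least 1.3-fold higher and 1 lower. In the 26 small-subunit genes it was 0.26, with 10 higher and 2 lower. With equal totals, 9 large-subunit genes stood higher and 1 lower, and 2 small-subunit genes stood higher and 2 lower, where all genes had 10.8% higher and 30.1% lower. With the authors' scaling the shares of all genes were 21.6% and 21.4%. The summed CPM had a ratio of 1.31 (1.29 to 1.33) for the large and 1.2 (1.17 to 1.24) for the small subunit. The 46 genes with bacterial counterparts had a median of 0.31, with 18 higher and 2 lower, and the 30 mitochondrion-specific genes 0.37, with 15 higher and 1 lower. Under hypoxia with T3 the medians of the large and small subunit were both 0.35 against control. The summed ratios with T3, against the same control library, were 1.31 (1.29 to 1.34) for the large and 1.2 (1.17 to 1.23) for the small subunit. Whether the subunits differed was not tested, and their medians lay within the spread of the 77 genes.

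Some proteins of the mitochondrial ribosome carry other symbols, and 6 of these were in the table. Their median log2 ratio was 0.49 in hypoxia over control. At least 1.3-fold higher were 4 of the 6, against 21.6% of all genes. Gadd45gip1, a large-subunit protein also known as CRIF1, had 16.3 CPM in control, 28.1 in hypoxia and 24.7 with T3, a ratio of 1.72 (1.5 to 1.98). Aurkaip1, of the small subunit, had 18.1, 28.4 and 31 CPM, a ratio of 1.57 (1.37 to 1.80). Chchd1, also of the small subunit, had 19.6, 29.7 and 33.5 CPM, a ratio of 1.51 (1.33 to 1.72). Dap3, a GTP-binding protein of the small subunit, was the most abundant at 66.3, 88.7 and 88.9 CPM, a ratio of 1.34 (1.24 to 1.44). Ptcd3 (38.6, 40.7 and 39.4 CPM) and Ict1 (16, 14.7 and 14.8 CPM) were nearly level, at 1.05 (0.954 to 1.17) and 0.922 (0.783 to 1.09). Ict1 codes for a peptidyl-tRNA hydrolase built into the large subunit. Of the 6, none was at least 1.3-fold lower, against 21.4% of all genes.

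Genes that work with the mitochondrial ribosome gave lower medians in hypoxia over control. The 14 mitochondrial translation factors had a median log2 ratio of −0.11. With equal totals 1 was at least 1.3-fold higher and 2 lower, against 10.8% and 30.1% of all genes. With the authors' scaling 2 were higher and 0 lower, against 21.6% and 21.4%. The 2 were Oxa1l (41.4, 63.2 and 66.2 CPM, ratio 1.53, 1.4 to 1.67), which inserts new proteins into the inner membrane, and Tufm (51.5, 73.3 and 71.6 CPM, ratio 1.42, 1.31 to 1.54), the mitochondrial elongation factor Tu. The recycling factor Mrrf (15.8, 13.5 and 13.7 CPM) and the translational activator Taco1 (10.1, 8.40 and 8.89 CPM) had ratios of 0.850 (0.718 to 1.0) and 0.835 (0.674 to 1.03). With the authors' scaling 11 of the 14 had a log2 ratio below 0, as had 6 of the 77 ribosomal protein genes. Among all genes compared, 5770 of 12692 were below 0. The median of the 14 was −0.16 relative to all genes, a difference that scaling can hardly change.

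The 26 assembly factors in the table had a median of 0.16. Of the 26, 6 were at least 1.3-fold higher and 3 lower, against 21.6% and 21.4% of all genes. With equal totals 1 was higher and 5 lower, against 10.8% and 30.1% of all genes, and the median was −0.00. Relative to the median of all genes it was 0.11 with the authors' scaling and 0.10 with equal totals, a difference that scaling can hardly change. Noa1, a GTPase needed for small-subunit assembly, had 26.0 CPM in control, 44.7 in hypoxia and 47.3 with T3, a ratio of 1.72 (1.54 to 1.92). Fastkd2, an RNA-binding protein of the large-subunit assembly pathway, had 12.5, 4.75 and 5.78 CPM, a ratio of 0.381 (0.295 to 0.487). Gtpbp10 (9.13, 5.91 and 6.12 CPM, ratio 0.647) and Ybey (6.49, 4.14 and 5.87 CPM, ratio 0.638, 0.476 to 0.851) were also lower. The list thus held both directions, as did all genes compared.

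The 19 genes for copying, transcribing and processing mitochondrial DNA and RNA had a median of −0.01. Of the 19, 6 were at least 1.3-fold higher and 4 lower, against 21.6% and 21.4% of all genes. Tfb2m, a mitochondrial transcription factor, had 20.7, 32.1 and 29.8 CPM, a ratio of 1.55. Trmt10c, a subunit of mitochondrial RNase P, had 11.4, 18.2 and 18.7 CPM, a ratio of 1.59, and 1110008L16Rik had 9.92, 5.85 and 5.40 CPM, a ratio of 0.590. Slirp, which stabilises mitochondrial messages, had 10.7, 16.3 and 16.6 CPM, a ratio of 1.53. Among 11 regulators of these genes the median was −0.14, with 2 higher and 3 lower, against the same shares of all genes. With equal totals 1 regulator was higher and 5 lower, against 10.8% and 30.1% of all genes. Myc had 34.0, 67.3 and 67.5 CPM, a ratio of 1.98 (1.81 to 2.173), and Mycn had 53.9, 75.1 and 97.7 CPM, a ratio of 1.39. Ppargc1a, a coactivator of mitochondrial biogenesis, had 34.7, 22.4 and 24.5 CPM, a ratio of 0.646 (0.571 to 0.730). Gabpa, whose ETS motif was counted above, had 29.0, 20.1 and 21.3 CPM, a ratio of 0.694. The regulators, like all genes compared, held both directions. Messages encoded by mitochondrial DNA were not analysed here.

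The other families examined of nuclear genes for translation and respiration gave larger and more even ratios. The 80 cytosolic ribosomal protein genes, taken by symbol, had a median log2 ratio of 0.69 in hypoxia over control. Of the 80, 79 were at least 1.3-fold higher, against 21.6% of all genes compared. The 78 nuclear genes for subunits of the respiratory chain and ATP synthase had a median of 0.52. Of the 78, 66 were at least 1.3-fold higher, against the same share of all genes. With equal totals their median was 0.35 and 31 of the 78 were at least 1.3-fold higher, against 10.8% of all genes. The cytosolic ribosomal protein genes were not recounted with equal totals. The interquartile range was 0.09 in the cytosolic ribosomal protein genes, 0.12 in the respiratory genes and 0.31 in the mitochondrial ribosomal protein genes, against 0.65 over all genes. The mitochondrial ribosomal protein genes thus had a lower median and a wider spread than both. They were also less abundant, with a median of 17.2 CPM in control, against 56.7 in the respiratory and 139 in the cytosolic ribosomal protein genes. Between the 2 hypoxic libraries the interquartile ranges of these families kept the same order. They were 0.0626 in the cytosolic ribosomal protein genes, 0.0890 in the respiratory genes and 0.165 in the mitochondrial ribosomal protein genes. Over all genes the range was 0.156. The part of counting error in the spread was not tested. These families were picked after the data were seen, and the differences between them were not tested.

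**Figure D3:**
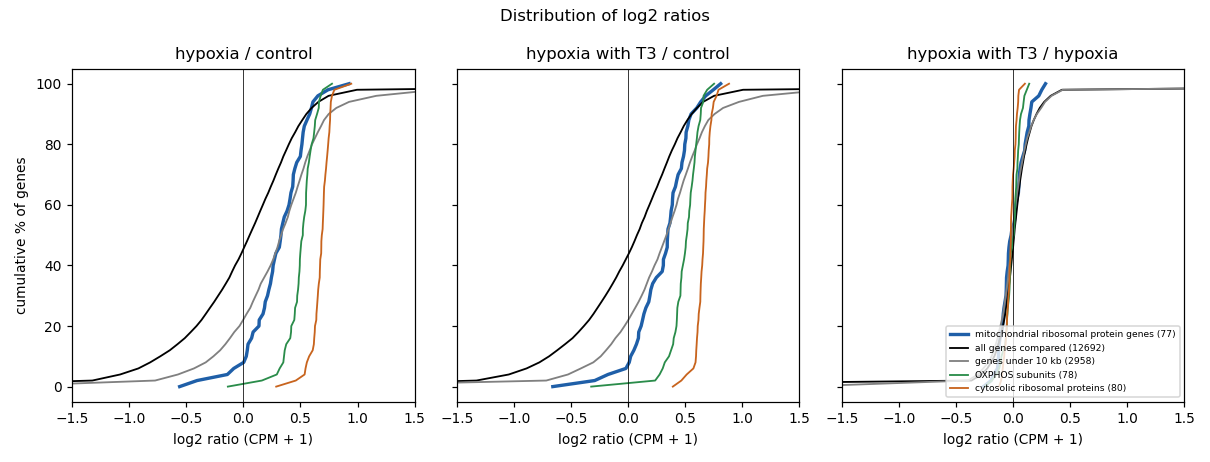
Cumulative percent of genes (vertical axis) at or below each log2 ratio on CPM + 1 (horizontal axis, shown from −1.5 to 1.5) in the 3 comparisons. Lines stand for the 77 mitochondrial ribosomal protein genes, all 12692 genes compared, the 2958 genes spanning under 10 kb, the 78 respiratory subunit genes and the 80 cytosolic ribosomal protein genes. In the 2 comparisons with control the blue line runs close to that of genes under 10 kb in its middle and left of the 2 other families. In the comparison of the hypoxic libraries all lines centre near 0.

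Gene length moved with the ratio. The 77 genes span a median of 7.89 kb (0.789 to 122 kb), against 25.8 kb for all genes compared, and 52 of the 77 (67.5%) span under 10 kb, against 23.5%. Over 12604 genes Spearman's rho between span and log2 ratio was −0.51 for hypoxia over control. Within the 77 it was −0.18. These are descriptions across genes of the same libraries. The 52 members under 10 kb had a median of 0.37, with 26 (50%) at least 1.3-fold higher. The 2906 other genes under 10 kb had a median of 0.33, with 45.1% higher and 7.23% lower. The 25 members of 10 kb or more had a median of 0.27, where all genes of that length had a median of −0.03. Of the 25, 7 were at least 1.3-fold higher. They were 4 of the 14 spanning 10 to 20 kb, 1 of the 4 of 20 to 50 kb and 2 of the 7 of 50 kb or more. Of all genes in these classes 733 of 2353, 502 of 3402 and 156 of 3891 were higher. The median of the short members was thus close to that of other short genes, and that of the longer members was above other long genes. The longer class is not matched in length. In it 14 members span 10 to 20 kb, with a median of 0.30 against 0.23 for all genes of that span. Of all genes 3891 span 50 kb or more, with a median of −0.30, and only 7 members do. The part that length plays in the group's ratio was not tested.

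**Figure D4:**
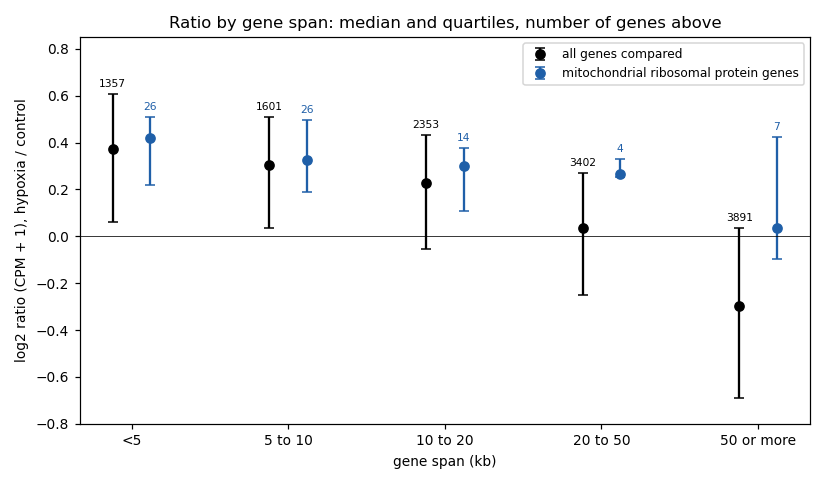
Log2 ratio of hypoxia over control on CPM + 1 (vertical axis) by class of gene span in kb (horizontal axis). Points are medians, bars run from the lower to the upper quartile, and the numbers above give the genes in each class, in black for all genes compared and in blue for mitochondrial ribosomal protein genes. Medians are 0.42 against 0.37 under 5 kb, 0.33 against 0.30 from 5 to 10 kb, 0.30 against 0.23 from 10 to 20 kb, 0.26 against 0.03 from 20 to 50 kb and 0.04 against −0.30 at 50 kb or more, where there are only 4 and 7 members in the last 2 classes.

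Many of these genes share a promoter region with a neighbour. The 5′ end of another gene on the opposite strand lay within 1 kb in 33 of the 77 (42.9%), against 16.7% of all genes. The 33 had a median log2 ratio of 0.32 in hypoxia over control and the other 44 had 0.33. The 28 partner genes compared had a median of 0.15. Of the 28, 10 were at least 1.3-fold higher and 1 lower, against 21.6% and 21.4% of all genes. Fau, which codes for a cytosolic ribosomal protein and starts 59 bp from Mrpl49, had 78.1, 137 and 132 CPM in control, hypoxia and hypoxia plus T3. Ndufs6, a subunit of complex I that overlaps the start of Mrpl36, had 21.8, 33.0 and 31.6 CPM, while Mrpl36 itself was level. Hira, a histone chaperone beside Mrpl40, had 97.5, 92.8 and 93.1 CPM, while Mrpl40 was higher in hypoxia. Mrpl46 and Mrps11 are partners of each other, and their promoter windows share 141 bp. In hypoxia over control their ratios were 1.36 for Mrpl46 and 1.11 for Mrps11. In the Mrpl36 and Mrpl40 pairs the neighbours thus had unlike ratios.

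The overlaps matter for the values too. Another protein-coding gene overlaps 26 of the 77 (33.8%), against 25.8% of all genes, and the strand setting of the counting is not given in the sources used here. Mrpl53, Mrps34 and Mrps25 share more than 50% of their 31-base words with other genes, so their values are uncertain. The 37 genes with no such overlap and less than 10% shared words had the same median, 0.33. Of the 37, 16 were at least 1.3-fold higher and 3 lower, against 21.6% and 21.4% of all genes. Oaz3, whose 5′ end lies inside Mrpl9, had 3.85, 3.31 and 3.40 CPM.

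Hypoxia with T3 against control used the same control library. The median log2 ratio was 0.35, against 0.08 over all genes. At least 1.3-fold higher were 32 of the 77, against 22.3% of all genes, and at least 1.3-fold lower were 2, Mrpl1 and Mrps2, against 20.4%. None of the 77 reached 2-fold, against 2.06% higher and 4.59% lower. In all, 71 were above 0, against 56.4%. The counting interval lay above 1 in 51, against 40.0%, and below 1 in 2, against 29.6%. Summed CPM was 1843 with T3, a ratio of 1.27 (1.25 to 1.29). With equal totals, 7 genes were at least 1.3-fold higher and 2 lower, against 10.1% and 29.9% of all genes. The highest were Mrpl9 at 1.78 (1.62 to 1.96), Mrps30 at 1.76 (1.56 to 1.98), Mrpl40 at 1.68 (1.46 to 1.93), Mrpl49 at 1.63 (1.46 to 1.82), Mrps24 at 1.60 (1.4 to 1.82) and Mrpl30 at 1.56 (1.42 to 1.72). The lowest were Mrpl1 at 0.604 (0.499 to 0.730), Mrps2 at 0.747 (0.662 to 0.843) and Mrps31 at 0.869 (0.719 to 1.05).

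Hypoxia with T3 against hypoxia asked what the hormone did in cells kept at low oxygen. The mitochondrial ribosomal protein genes were at nearly the same level in both libraries. Their median log2 ratio was −0.02, against 0.01 over all genes, with a range from −0.26 to 0.28. None was 1.3-fold higher or lower, against 2.77% and 1.73% of all genes. None was 2-fold higher or lower, against 0.126% and 0.0630%. A log2 ratio above 0 was seen in 36 of the 77, against 54.1% of all genes. Summed CPM had a ratio of 0.998 (0.984 to 1.01), an interval that covers counting error in these libraries but not variation between cultures.

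The counting interval lay above 1 in 5 genes, against 11.1% of all genes, and below 1 in 1, against 6.71%. Mrps11 went from 12 to 14.9 CPM with T3, a ratio of 1.24 (1.04 to 1.47), with 10.8 CPM in control. Mrps30 had a ratio of 1.21 (1.08 to 1.35). Mrpl13, at 12.2 CPM in control, 14.8 in hypoxia and 17.6 with T3, had 1.19 (1.02 to 1.4). Mrpl50 (34.9, 40.2 and 45.3 CPM) had 1.13 (1.03 to 1.24) and Mrpl12 had 1.12 (1.02 to 1.23). Each of these 5 was highest in the T3 library. The gene below 1 was Mrpl48, with 17.2, 25.6 and 22.1 CPM and 0.863 (0.760 to 0.980). Mrpl1 had 0.819 (0.662 to 1.01) and Mrps36, the gene that codes for no ribosomal protein, had 17.4, 21.9 and 19.2 CPM and 0.877 (0.764 to 1.01). Mrpl21 at 0.880 (0.750 to 1.03), Mrpl17 at 0.907 and Mrps26 at 0.907 were the next lowest. Against the background shares, the number of genes whose interval left 1 was not above that of all genes.

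The authors deposited their own comparison with control for each hypoxic culture, covering 13152 genes, with a test the labels do not name. In the authors' deposited table for hypoxia, 85 genes had a false discovery rate below 0.05, and 0 of the 77 were among them. In the authors' deposited table for hypoxia with T3 there were 104, again with 0 of the 77. The lowest p of any of the 77 in the authors' deposited tables was 0.153 for Mrpl9 in hypoxia and 0.205 for Mrpl1 in hypoxia with T3. Taken from the fold changes in the authors' deposited tables, the median log2 ratio of the 77 was 0.29 and 0.30. The tables thus gave ratios of similar size, with no gene of the 77 past the threshold.

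Marker genes give the cell types whose RNA was in the cultures. The 10 neuronal markers were all present, with summed levels of 8297, 8835 and 8893 CPM in the same order. In hypoxia over control 9 of the 10 had a log2 ratio above 0, with a median of 0.31, and 8 had an interval above 1. Nefl, a neurofilament protein, had 75.4, 171 and 185 CPM, and Stmn2, a tubulin-binding protein of growing neurites, had 1334, 1810 and 1793 CPM. The exception was Tubb3, a neuronal tubulin, with 1771, 873 and 739 CPM. The 8 astrocyte markers summed to 496, 502 and 524 CPM and the 6 progenitor markers to 268, 362 and 348 CPM. These sums hide unlike members. In hypoxia over control 5 of the 7 astrocyte markers compared had a log2 ratio above 0 and 2 below. Gfap had 15.2, 23.7 and 13.9 CPM and Slc1a2 177, 140 and 169 CPM. Of the progenitor markers 5 were above 0 and 1 below, at −2.24. Among all genes 54.5% were above 0. The 8 oligodendrocyte-lineage markers summed to 345, 204 and 207 CPM, with 1 above 0 and 7 below in hypoxia over control. Microglial markers summed to at most 2.13 CPM, with Tmem119 at 0 in both hypoxic libraries, and endothelial markers to at most 1.99 CPM, with Cldn5 at 0 in both hypoxic libraries and Cdh5 at 0 with T3. The 4 fibroblast markers summed to 8.16, 11.7 and 12.2 CPM. The part of cell composition in the ratios was not tested, and in bulk RNA fewer cells of a type and less RNA per cell cannot be told apart.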

How the data were processed

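RNA from 3 cultures, 1 library each, was analysed. Per the submitters' processing notes, bcl2fastq 2.17, Bowtie2 2.1.0, RSEM 1.2.15 and the mm10 build were used, with no roles given. The authors deposited CPM per gene, scaled by TMM per the name of the deposited table. They also deposited their own tables of fold changes, p-values and false discovery rates, and log2 ratios were taken here from those fold changes. Those deposited tables also hold a signal column per library, by the authors, with the same reads on another scale, which was not used. In the deposited CPM, 100% of values were whole multiples of the value of 1 read (within 0.01 read), so whole reads were recovered. They served only for counting intervals and scaling. A count test such as edgeR was not run as 1 library per group leaves no residual degrees of freedom. The sources used here do not state the strand setting of the counting or the test behind the authors' p-values.

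Ratios were taken on log2(CPM + 1), which understates low genes, over the 12692 genes whose mean reached 1 CPM. A gene was counted as higher or lower from 1.3-fold on that scale, with 2-fold also given. Printed ratios of single genes are plain ratios of CPM. A level of 3 reads corresponds to 0.139, 0.166 and 0.128 CPM in the control, hypoxia and T3 libraries. Gene span, exons, overlaps and neighbours came from GENCODE M21 (GRCm38), where 99.3% of compared genes were matched, 12121 by symbol and 483 by synonym. Promoter windows came from RefSeq. Named genes were the 6 highest and 6 lowest of the 77 per comparison with a mean of at least 5 CPM, the 5 highest and 5 lowest per kb, a fixed set of ribosome genes, and up to 4 genes per further list with the largest ratio. Nrf1 and Yy1 were added because their motifs were counted. The members and lists were chosen with earlier results of these data known. Alternatives covered the pseudocount, the filter, scaling and the choice of members. The scripts were tested on simulated data. Tools were Python 3.11.15, pandas 2.3.3, scipy 1.17.1, R 4.3.3, edgeR 4.0.16 and DESeq2 1.42.0, the last pair for scaling factors only.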

Additional observations from a re-analysis of the deposited data

How the results depend on the processing

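The direction of the median ratio against control and of the named genes among the 77 that were at least 1.3-fold higher or lower was kept under the pseudocount and scaling alternatives. With 1 library per group no replicate could be left out. No paired analysis was possible because each group has 1 library. With a pseudocount of 5 CPM, 1 gene was at least 1.3-fold lower in hypoxia over control, against 16.2% of all genes. For hypoxia with T3 over control 21 were higher and 1 lower, against 16.9% and 15.4% of all genes. With library totals made equal, the medians against control were 0.17 for hypoxia and 0.17 for hypoxia with T3. The genes higher were 11 (14.3%) and 7 (9.09%) of the 77, against 10.8% and 10.1% of all genes. The ratios of summed CPM were 1.13 and 1.11. With DESeq2 size factors the summed ratios were 1.22 and 1.2, and 0.984 for T3 within hypoxia. With TMM recomputed by edgeR, 20 genes were higher in hypoxia over control, and the summed ratios were 1.2 and 1.19. Splits of all genes in hypoxia over control were 17.5% higher and 24.4% lower with DESeq2, and 15.7% and 25.7% with TMM recomputed. Over the 37 genes without overlap or shared words, chosen after seeing the data, 16 and 14 were higher, against 21.6% and 22.3% of all genes. Their summed ratios were 1.25 and 1.24. Relative to all genes the median in hypoxia over control was 0.27 higher under each scaling. This is no check, because scaling multiplies all genes of a library by the same factor. At 82 or more reads per gene, the counting interval between the hypoxic libraries lay above a ratio of 1 for 5 of the 77 genes. It lay below 1 for 1 gene. The shares of all genes were 11.1% and 6.71%.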
